A study of Mus musculus with 6 samples.

Results

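Primed epiblast stem cells (EpiSCs) were set against naive embryonic stem cells (ESCs) at the level of the methylome. The comparison took the 2 EpiSC and the 2 ESC libraries among the 6 whole-genome bisulfite libraries of a study of mouse pluripotent states, and the other 2 libraries came from advanced pluripotent stem cells (ASCs). Regions were 2 kb tiles and the promoters of protein-coding genes on chromosomes 1 to 19, kept where each of the 4 libraries had at least 40 CpG observations, one observation being one read over one CpG site. This left 454075 of 1197510 tiles that hold a CpG and 14593 of 20722 promoters. Only 2309 of the tested tiles held 1 to 10 CpG sites, so the tile results speak little for CpG-poor tiles. A promoter ran from 1000 bp before the start of one transcript per gene to 100 bp after it.

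By the labels, all 4 cultures were wild type and of strain 129S2/SvPasCrl. The study describes the ESCs and EpiSCs of its RT-PCR assays as derived from crosses with transgenic reporter males of mixed background. Whether the same lines were sequenced here is not stated. ESCs were kept in 2i/LIF, a medium with inhibitors of MEK and GSK3 plus leukaemia inhibitory factor, and EpiSCs are grown as cells resembling the postimplantation epiblast. The study described the cells as female. The label for cell type reads embryonic stem cells for every library, and the group came from the library title and the source name. Replicates were described as biological, but the labels do not say whether they were separate lines or cultures, so every p-value below speaks only for these samples. The p-values of single regions come from observations summed within each group. They are scaled by a spread between replicates that is moderated across regions, and they treat CpG sites on the same read as separate observations.

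In mammals, cytosines in CpG pairs are methylated by DNMT3A and DNMT3B and the mark is copied at replication by DNMT1 with UHRF1. The genome of the blastocyst epiblast is low in methylation and regains it around implantation, and the naive and primed stem cells in culture stand on either side of that step. CpG islands, the CpG-dense stretches at many gene starts, usually stay free of methylation, whereas starts of germline genes and one allele of imprinted genes are well known exceptions.

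A set of 8 stretches shows the patterns on which the results turn, each of 200 bases and free of annotated exons, read 5′ to 3′ on the strand of the gene from GRCm38, with CpG sites in capitals. The Zfp42 stretch (chr8:43306987-43307186, minus strand, 250 to 51 bases before the start) stands for naive genes, and Hormad1 (chr3:95559477-95559676, plus) and Sycp3 (chr10:88459369-88459568, plus) for meiotic genes. Krt4 (chr15:101924736-101924935, minus) and Pou5f1 (chr17:35505818-35506017, plus) are both poor in CpG but ended at opposite levels, and Igf2r (chr17:12769665-12769864, minus) is imprinted. The Uhrf1 pair lies directly before the start (chr17:56303121-56303320, plus) and 600 to 401 bases before it (chr17:56302721-56302920, plus).
Zfp42: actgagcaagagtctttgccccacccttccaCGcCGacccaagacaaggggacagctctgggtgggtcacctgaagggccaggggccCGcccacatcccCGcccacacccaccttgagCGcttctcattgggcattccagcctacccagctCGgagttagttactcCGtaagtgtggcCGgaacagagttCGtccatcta
Hormad1: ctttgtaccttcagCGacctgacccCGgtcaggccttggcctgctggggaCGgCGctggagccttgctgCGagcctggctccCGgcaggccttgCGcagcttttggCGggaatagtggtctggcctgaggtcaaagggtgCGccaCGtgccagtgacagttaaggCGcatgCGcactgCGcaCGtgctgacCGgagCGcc
Sycp3: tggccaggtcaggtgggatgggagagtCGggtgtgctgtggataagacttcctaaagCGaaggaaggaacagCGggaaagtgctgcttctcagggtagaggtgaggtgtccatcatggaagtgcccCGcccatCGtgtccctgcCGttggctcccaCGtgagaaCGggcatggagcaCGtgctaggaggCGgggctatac
Krt4: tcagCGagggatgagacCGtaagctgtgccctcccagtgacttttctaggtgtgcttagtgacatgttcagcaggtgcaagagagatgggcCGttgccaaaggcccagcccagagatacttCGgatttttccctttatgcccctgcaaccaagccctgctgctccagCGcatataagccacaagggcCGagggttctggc
Pou5f1: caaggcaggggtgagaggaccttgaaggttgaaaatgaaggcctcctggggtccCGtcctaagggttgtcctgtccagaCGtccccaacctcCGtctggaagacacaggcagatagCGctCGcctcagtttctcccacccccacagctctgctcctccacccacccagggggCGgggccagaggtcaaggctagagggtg
Igf2r: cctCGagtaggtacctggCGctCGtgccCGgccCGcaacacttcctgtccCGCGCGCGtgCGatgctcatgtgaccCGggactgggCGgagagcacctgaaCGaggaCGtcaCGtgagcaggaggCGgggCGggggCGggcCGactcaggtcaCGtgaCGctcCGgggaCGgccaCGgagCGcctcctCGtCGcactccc
Uhrf1 near: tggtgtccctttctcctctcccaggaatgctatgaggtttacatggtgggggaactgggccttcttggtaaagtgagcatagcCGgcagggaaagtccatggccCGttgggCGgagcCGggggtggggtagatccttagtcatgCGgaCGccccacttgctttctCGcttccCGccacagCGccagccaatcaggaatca
Uhrf1 far: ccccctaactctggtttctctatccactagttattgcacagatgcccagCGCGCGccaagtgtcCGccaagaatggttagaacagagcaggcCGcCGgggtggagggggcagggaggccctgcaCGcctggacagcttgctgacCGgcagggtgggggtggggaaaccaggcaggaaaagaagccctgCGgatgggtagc

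Over the 9 CpG sites of the Zfp42 stretch, 0 of 26 and 0 of 25 observations were methylated in ESCs, against 43 of 45 and 25 of 26 in EpiSCs. The 16 sites of Hormad1 read 14 of 142 and 1 of 179 in ESCs and 129 of 133 and 94 of 96 in EpiSCs. For Sycp3 the counts were 5 of 70 and 3 of 56 in ESCs and 24 of 25 and 26 of 27 in EpiSCs. Both meiotic stretches moved from nearly free of the mark to nearly full. Krt4 had 5 of 35 and 3 of 26 methylated observations in ESCs and 47 of 47 and 27 of 27 in EpiSCs. Pou5f1, with 6 sites like Krt4, had 0 of 76 and 0 of 56 in ESCs and 0 of 26 and 1 of 34 in EpiSCs. Igf2r stopped midway in EpiSCs, at 82 of 142 and 63 of 107 observations, from 2 of 128 and 1 of 190 in ESCs. Near the Uhrf1 start no library had a methylated observation, with 57, 42, 45 and 43 observations in ESC replicates 1 and 2 and EpiSC replicates 1 and 2. Further up, the same order of libraries gave 2 of 48, 0 of 38, 27 of 27 and 38 of 39.

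The 4 libraries held 63803799 to 74925271 CpG observations, a mean of 2.96 to 3.46 per listed site, and EpiSC replicate 2 was the shallowest. With 40 observations, the 95% Wilson interval around 50% runs from 35.2% to 64.8% and covers counting error only. Reads per CpG were not even across chromosomes (plot of read depth per chromosome). Chromosome 6 stood at 1.33 times the median autosome in both ESC libraries but at 0.915 and 0.902 in EpiSCs, and chromosome 12 stood at 1.27 in both EpiSC libraries but at 0.934 and 0.937 in ESCs. The other 17 autosomes had ESC to EpiSC ratios of 0.959 to 1.06. Median tile levels on chromosome 6 were 19.8% and 20.2% in ESCs and 92.2% and 92.0% in EpiSCs, and on chromosome 12 they were 20% and 20.3% against 92.2% in both. Without these chromosomes 96.5% of 405340 tiles and 36.3% of 13322 promoters were still called higher in EpiSCs by the test below. Some naive markers differed between the groups and others, such as Klf4 and Tbx3, were low in both. At Tcl1 the levels were 0.769% and 1.77% in ESCs and 93.9% and 93.5% in EpiSCs, and Dppa5a read 1.43% and 0% against 96.4% and 90.2%. Dppa3 and Fbxo15 had fewer than 40 observations in at least 1 library and read at most 2.06% in ESCs and at least 81.6% in EpiSCs, and the shared markers Pou5f1 and Sox2 stayed below 1% in all 4 libraries.

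**Figure D1:**
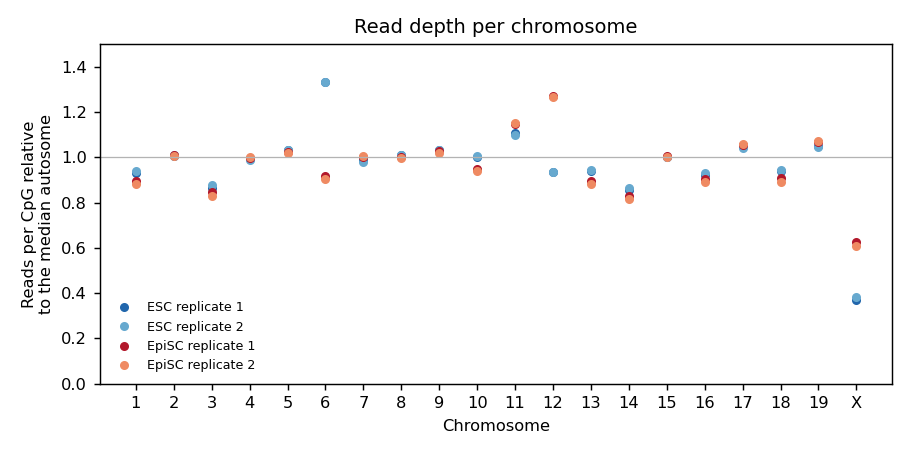
Reads per CpG site on each chromosome (horizontal axis) relative to the median autosome of the same library (vertical axis), one point per library. Chromosome 6 stands out at 1.33 in both ESC libraries, chromosome 12 at 1.27 in both EpiSC libraries, and chromosome X differs between the groups.

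Almost all tested tiles were more methylated in EpiSCs. Median tile methylation was 19.4% and 19.7% in ESC replicates 1 and 2 (19.5% ± 0.257, SD, n = 2) and 92.1% and 92.1% in EpiSC replicates 1 and 2 (92.1% ± 0.0295, SD, n = 2). The 2 groups did not overlap in 99.5% of tiles, EpiSCs being above. An exact permutation test of 2 medians against 2 cannot go below p = 0.333. Single tiles were tested with a spread shared across tiles, which adds no replication to the 2 libraries per group. By a quasi-binomial model with limma-moderated dispersion, 438614 tiles were higher in EpiSCs at a Benjamini-Hochberg adjusted p under 0.05 and a difference of at least 20 percentage points, which is 96.6% of those tested. Only 4 tiles (0.000881%) were lower and 15457 (3.4%) were not called either way. The median difference was 69.8 points, and differences from the 5th to the 95th percentile of tiles ran from 38.4 to 84.0 points. The number of tiles called higher in EpiSC moved with the depth asked for, to 705266 with a minimum of 20 observations and 113960 with a minimum of 100. Each minimum sets which tiles are tested, so these counts are not out of the same total.

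**Figure D2:**
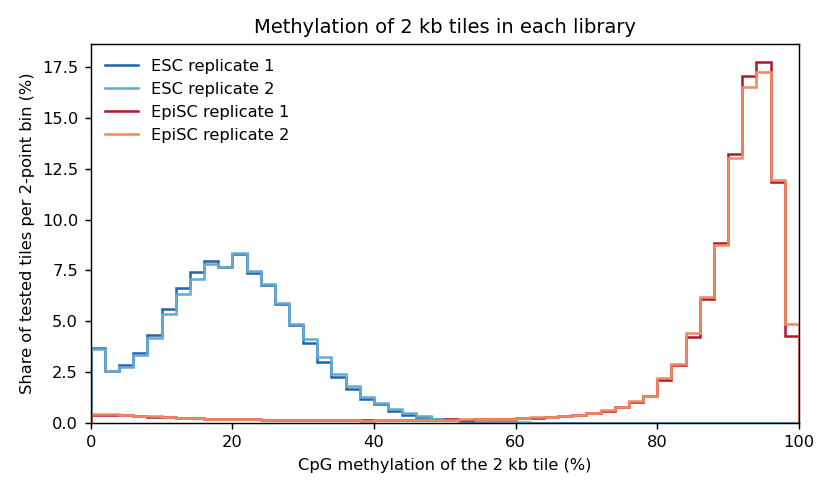
Share of the 454075 tested tiles (vertical axis, percent per 2-point bin) at each methylation level (horizontal axis, percent), one outline per library. The ESC libraries centre near their medians of 19.4% and 19.7% and the EpiSC libraries near 92.1%, with little overlap.

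Tiles that stayed low in EpiSCs were mostly dense in CpG. In tiles with 11 to 20 CpG sites the medians were 19.5% and 19.8% in ESCs and 92.0% in both EpiSC libraries, and in tiles with 41 to 80 sites they were 12.05% and 12.3% against 90.1% in both. In the 8760 tiles with over 80 sites, however, the medians were 1.09% in both ESC libraries and 7.02% and 6.63% in EpiSCs, and the median of the differences was 5.45 points. Among the 15461 tiles not called higher, 11573 (74.9%) had their centre within 2000 bp of a gene start, against 6.45% of all tested tiles. These tiles held a median of 78 CpG sites, against 23 among all tested tiles, and 12758 of them were below 20% in both EpiSC libraries. The 106078 tiles farthest from any start had medians of 21.4% and 21.8% in ESCs and 91.9% in both EpiSC libraries. Among classes of repeat content, ESC levels were highest in the 4390 tiles of which over 90% was masked as repeat, at 28.6% and 28.9%, while EpiSCs read 91.9% and 92.2% there.

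No tile was above 80% in both ESC libraries, whereas 388573 (85.6%) were above 80% in both EpiSC libraries. The 5 tiles with the largest difference lay in a lincRNA exon (Gm5784, chr12:19388001-19390000), in introns of Cdk7 (chr13:100724001-100726000) and Tmem131 (chr1:36856001-36858000) and over exons of Rhoa (chr9:108308001-108310000) and Rpl9 (chr5:65388001-65390000). In the last 4 of these, 0% was methylated in both ESC libraries and 96.2% or more in both EpiSC libraries. The highest ESC level was in a tile over an exon of Qrsl1 (chr10:43884001-43886000), at 70.4% and 73.0% in ESCs and 98.2% and 94.2% in EpiSCs. That tile was still called higher, by 24.6 points (adjusted p = 2.99e-06). In all, 510 tiles were at 50% or more in both ESC libraries, and their EpiSC mean was never below 65.7%.

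Promoters differed from tiles. Their median was 1.49% and 1.52% in ESCs and 13.8% and 12.9% in EpiSCs, and 5282 of 14593 (36.2%) were called higher in EpiSCs while 1 (0.00685%) was called lower and 9310 (63.8%) were not called. Without the 20-point limit, 10647 promoters (73%) were higher at an adjusted p under 0.05. The share called differed by the CpG content of the promoter, classed as high, intermediate or low from the ratio of observed to expected CpG and the GC content. Of high-CpG promoters 479 of 5968 (8.03%) were called higher, of intermediate ones 2300 of 5840 (39.4%) and of low-CpG ones 2499 of 2780 (89.9%). The median level of high-CpG promoters was 0.699% and 0.658% in ESCs and 4.68% and 4.38% in EpiSCs. Low-CpG promoters had medians of 11.1% and 11.2% in ESCs and 85.0% and 84.6% in EpiSCs, both below the tile medians. Only 33.3% of low-CpG promoters reached the minimum of observations, against 99.2% of high-CpG ones, so the low class was the least completely sampled.

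**Figure D3:**
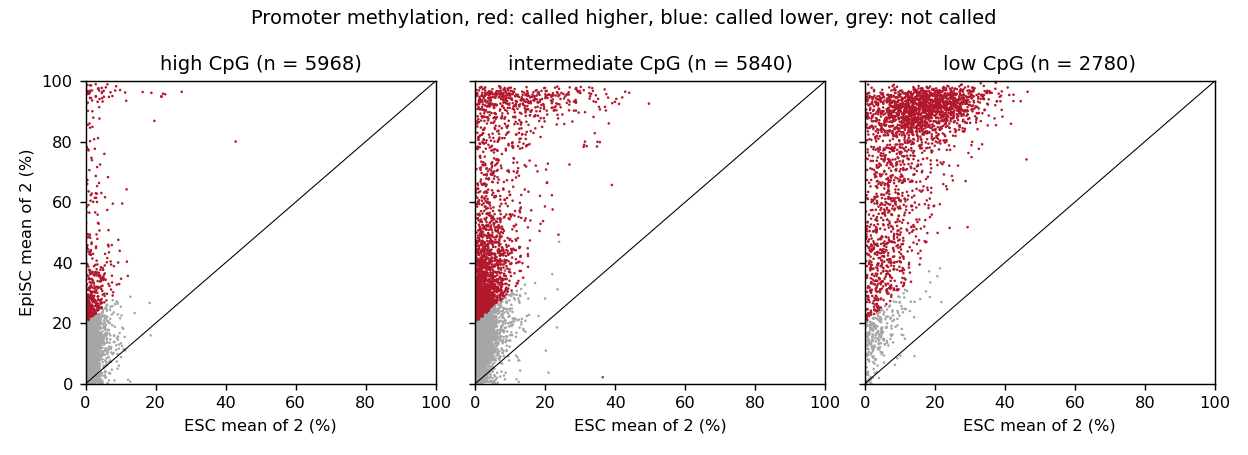
Mean promoter methylation of the 2 EpiSC libraries (vertical axis, percent) against that of the 2 ESC libraries (horizontal axis, percent) in the 3 CpG classes, with one point per promoter and the line of equality. Called promoters number 479, 2300 and 2499 in the high, intermediate and low class, and called points of the low class gather near the top, whereas those of the intermediate class are spread from 20% upwards.

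Full methylation from an unmethylated state was rare in the CpG-dense class. A level below 10% in both ESC libraries and above 80% in both EpiSC libraries was found at 51 high-CpG promoters, 198 intermediate and 239 low ones. Those are 0.855%, 3.39% and 8.60% of the tested promoters of their classes, against 3.34% of all tested promoters. By contrast, 3972 high-CpG promoters (66.6%) were below 10% in all 4 libraries. Only 48 of 2780 low-CpG promoters (1.73%) were, among them Pou5f1, which encodes OCT4, and Lin28a, an RNA-binding regulator of let-7. No promoter was above 50% in both ESC libraries.

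Much of the gain stopped short of the start itself. In the 200 bp upstream of the start, high-CpG promoters together had 0.929% and 0.947% methylated observations in ESCs and 2.83% and 2.72% in EpiSCs. In the bin that starts 1000 bp upstream the EpiSC levels were 30.8% and 29.4%, against 3.47% and 3.42% in ESCs. The whole promoter window therefore joined a low inner part, from 300 bp before the start to 100 bp after it, with a more methylated outer part. Among the 3286 promoters called higher with at least 20 observations in both parts, the median EpiSC level was 26.6% in the inner part and 86.9% in the outer part. The inner part was below 20% in EpiSCs in 1523 of them (46.3%) and above 80% in 1009 (30.7%). For high-CpG promoters the split was 302 below 20% and 60 above 80% of 432, and for low-CpG promoters 202 and 672 of 1201. With 500 bp on each side of the start as the window, promoters called higher, high CpG, numbered 209, and promoters called higher, intermediate CpG, numbered 1164.

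**Figure D4:**
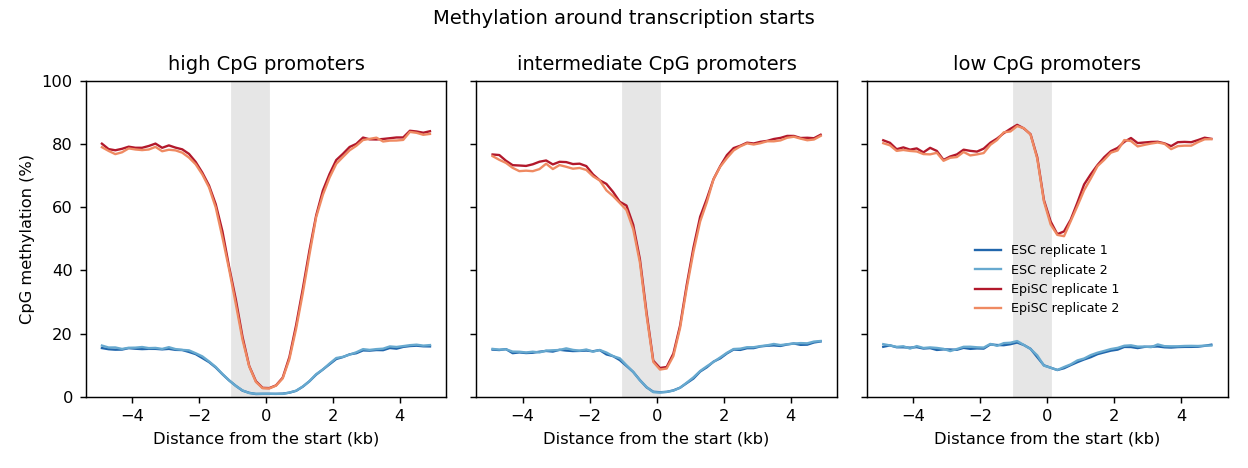
CpG methylation (vertical axis, percent) in 200 bp bins from 5 kb before to 5 kb after the start (horizontal axis, kb) for the 3 CpG classes, one line per library, with the promoter window in grey. EpiSC lines fall to 2.75% and 2.64% just after the start at high-CpG promoters but stay above 50% at low-CpG ones, and the ESC lines stay below 20% throughout.

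Uhrf1, whose product recruits DNMT1 to replicating DNA, shows this division. Over its whole window (chr17:56302321-56303421) it read 1.28% and 0% in ESCs and 33.9% and 43.8% in EpiSCs, a called difference of 38.2 points (adjusted p = 3.03e-05). Its inner part was at 0% and its outer part at 94.4% in EpiSCs, and the call was lost with 500 bp on each side of the start, where the difference was 2.41 points. Of the ribosomal protein genes 23 of 66 were called higher (34.8%), which is about the share of all promoters (36.2%). In 16 of the 19 with both parts covered the inner part was below 20% in EpiSCs, against 69.9% of such called high-CpG promoters and 61.7% of intermediate ones. Rpl35 had the largest difference of that family, from 0% and 0.758% to 80.6% and 75%, with 30.2% in the inner and 92.6% in the outer part. Its window also overlaps an exon of Wdr38. Rpl7 lay at the other end, at 0.472% and 0% in ESCs and 0% in both EpiSC libraries.

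Genes of the naive state were divided. Of 22 listed, 15 could be tested and 7 were higher in EpiSCs (46.7%, against 36.2% of all promoters), with a median difference of 12.01 points against 11.4 over all promoters. Zfp42, also known as Rex1 and a standard naive marker, read 0% and 0% in ESCs and 93.7% and 98.1% in EpiSCs, the largest difference among the 15 tested at 95.9 points (adjusted p = 2.38e-06). The 0 of 84 and 0 of 75 methylated observations in ESCs allow a level of up to 3.57% and 4% (3 counts). Tcl1, a cofactor of AKT, and Tdh, the threonine dehydrogenase of mouse ESCs, gained 92.5 and 92.4 points, and Dppa5a gained 92.6 points. The adhesion gene Pecam1 went from 7.55% and 8.96% to 97.1% and 96.9%. In all 7 the EpiSC libraries were above both ESC libraries, but these promoters were picked by their call, so this adds no support. Nanog, a core pluripotency factor, and Prdm14, a repressor of the primed programme, moved less, to 53.4% and 45.3% and to 24.8% and 18.1% in EpiSCs, and with 500 bp on each side of the start neither was called (13.7 and 13.6 points). Prdm14 also missed the limit without EpiSC replicate 1, at 17.6 points. Wherever a library was left out, here and for the other genes, 1 library of its group stood against 2 and was assumed to vary like the other group, so a call gained in that way is not replicated.

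The Kruppel-like factors and several other naive regulators were low in both states. Klf4 read 1.27% and 0.769% in ESCs and 0.526% and 0% in EpiSCs, and Tbx3 0.844% and 0.337% against 0.76% and 1.36%. Klf2, Klf5, Jam2 and Tfcp2l1 had EpiSC means of 3.43% to 11.9%. Esrrb and Fgf4 were not called at the start used here (7.52 and 12.01 points) but were at the most upstream annotated start (53.4 and 58.6 points), so their level depends on which start is read. The 7 naive genes that fell short of the minimum had at least 10 observations in each library, and their median was 1.61% in ESCs and 91.7% in EpiSCs. Dppa2, Dppa3, Dppa4, Gdf3 and Spp1 are among them.

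The factors listed as shared by both states had low promoters in both. Nanog, which the study found expressed in all its cell types, was counted with the naive genes above and was called higher there. None of the 10 shared pluripotency genes was called, against 36.2% of all promoters, with a median difference of 4.11 points against 11.4 over all promoters, although 5 were higher at an adjusted p under 0.05 by less than 20 points. Sox2 read 0.351% and 0.361% in ESCs and 0.585% and 0.647% in EpiSCs, and Pou5f1 0.714% and 0% against 0% and 0.855%. Sall4 and Utf1 were higher by 9.12 and 16.4 points, below the 20-point limit (adjusted p = 0.00443 and 0.00536). Utf1 passed the limit when EpiSC replicate 1 was left out, at 20.1 points, with a single EpiSC library behind it.

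Most tested promoters of the primed epiblast and early streak were low in both states. Of 20 tested, 4 were called higher (20%, against 36.2% of all promoters), with a median difference of 4.16 points against 11.4 over all promoters. T, which encodes brachyury, Zic2, Lhx1 and Gsc had means below 2% in both groups, and Fgf5, the classical primed marker, read 0.709% and 1.89% in ESCs and 6.60% and 3.41% in EpiSCs. Eomes and Wnt3 pointed the other way by small amounts, 1.96 and 3.15 points lower in EpiSCs (adjusted p = 0.0424 and 0.00906). The highest of those tested in EpiSCs was Lefty2, a secreted inhibitor of NODAL, at 15.1% and 17.4% in ESCs and 79.1% and 94.1% in EpiSCs. Its neighbour and paralogue Lefty1 read 6.59% and 1.06% against 9.09% and 13.8%, which did not pass (adjusted p = 0.0912). Nodal, Pou3f1 and Zic5 were higher by 23.4, 22.1 and 25.6 points, with inner parts at 14.7%, 8.44% and 5.66% in EpiSCs. All 3 lost the call with 500 bp on each side of the start (8.90, 7.13 and 5.84 points), whereas Wnt8a gained it there (26.5 points). With a single library in one group, Wnt8a also passed the limit without EpiSC replicate 2 (21.1 points), and Mixl1 without ESC replicate 2 or EpiSC replicate 2 (20.2 and 23.8 points). The 2 members short of the minimum were high in EpiSCs. Cer1, a secreted inhibitor of NODAL and BMP signals, read 25.7% and 17.9% in ESCs and 90.9% and 91.9% in EpiSCs from at least 28 observations, and Mesp1, a mesoderm factor, 23.8% and 12.8% against 100% and 88.7% from at least 36.

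**Figure D5:**
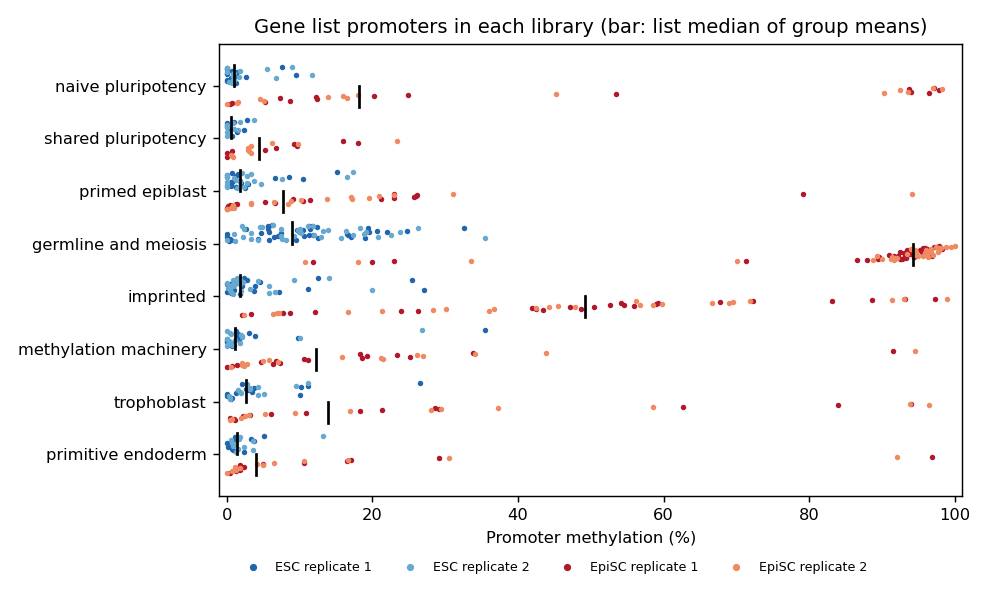
Methylation (horizontal axis, percent) of every tested promoter of 8 gene lists, one point per promoter and library, with the ESC libraries above the EpiSC libraries in each row and a black bar at the median of the group means. Germline promoters gather near the EpiSC median of 94.2%, imprinted ones spread around 49.1%, and the shared pluripotency list stays below 25%.

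Germline promoters gained almost without exception. Of 38 tested, 36 were higher in EpiSCs (94.7%, against 36.2% of all promoters), the median difference was 83.2 points against 11.4 over all promoters, and the list medians were 10.07% and 10.04% in ESCs and 93.4% and 94.6% in EpiSCs. They gained across the start itself. Of 23 called with both parts covered, 22 were above 80% in the inner part, against 30.7% of all such called promoters. The RNA helicase gene Ddx4 (Vasa) went from 6.18% and 6.33% to 97.8% and 100%. Among genes of the synaptonemal complex and recombination, Sycp3 went from 9.68% and 9.73% to 94.1% and 96.7%, Dmc1 from 0% and 2.29% to 93.0% and 91.8%, and the cohesin subunit Rec8 from 0% and 1.08% to 93.3% and 94.5%. All 4 were nearly full in both EpiSC libraries.

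Within ESCs the germline list was not uniform. Dazl, an RNA-binding protein of germ cells, read 19.6% and 23.8%, Dpep3 32.6% and 26.3% and Tdrd1 19.05% and 35.5%, above the ESC median of all promoters (1.49% and 1.52%), and all 3 reached at least 89.5% in EpiSCs. The piRNA pathway genes Piwil1, Piwil2, Piwil4, Mov10l1, Tdrd6, Tdrd9 and Asz1 had ESC means of 8.12% to 16.99% and EpiSC means of 91.8% to 95.6%. Meiob and Stag3 were not called. Meiob reached 20% and 10.7% in EpiSCs, and Stag3 11.9% and 18.1%. Stag3 was called with 500 bp on each side of the start, at 33.2 points. Stra8, the retinoic acid target of meiotic entry, read 71.2% and 70% in EpiSCs but only 28.9% in its inner part. Tex14 was the reverse, at 93.1% in the inner and 9.43% in the outer part.

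The letters CACGTG, an E-box, occurred between 250 bp before and 50 bp after the start in 13 of the 38 germline promoters (34.2%), among them Ddx4, Hormad1, Sycp1 and Sycp3, against 9.87% of all 14593 tested. The letters TCCCGC on either strand (GCGGGA on the other) occurred in 15 of the 38 (39.5%) and in 35.1% of all. Of the 51 high-CpG promoters that were below 10% in ESCs and above 80% in EpiSCs, 9 (17.6%) held CACGTG and 30 (58.8%) held TCCCGC, against 11.2% and 49.8% of all high-CpG promoters. Both motifs contain a CpG, CACGTG reads the same on both strands, and the motifs can share at most 1 letter. Meiob and Stag3 hold CACGTG as well.

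Tested promoters of imprinted genes often reached intermediate levels. Of 25 tested promoters, 19 were called higher (76.0%, against 36.2% of all promoters), with list medians of 1.79% and 1.36% in ESCs and 50.5% and 45.4% in EpiSCs. A level between 30% and 70% in both EpiSC libraries was found in 12 of the 25 (48.0%), against 9.14% of all promoters and 12.7% of the intermediate-CpG class, to which 14 members belong. Bisulfite reads here were not assigned to parental alleles, so a level near the middle says only that some molecules carried the mark. In ESCs, 21 of the 25 were below 10% in both libraries, much like all promoters (12080 of 14593). Dlk1 and Grb10 lost the call with 500 bp on each side of the start (9.81 and 16.1 points). Of the 3 members short of the minimum, Ndn had at most 5 observations per library. Snrpn read 5.88% and 5% in ESCs and 90.5% and 80% in EpiSCs, from at least 15 observations. Impact read 14.3% and 11.5% against 78.9% and 84.2%, from at least 19.

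The middle range held genes expressed from either parental copy. Mest, a hydrolase gene expressed from the paternal copy, read 0.997% and 0.775% in ESCs and 55.9% and 45.4% in EpiSCs. Peg10, derived from a retrotransposon, and its neighbour Sgce, a sarcoglycan, share a start region and reached 47.2% and 44.2% and 42.5% and 36.7%. Usp29 and Peg3, which likewise overlap in window, reached 42.0% and 42.5% and 48.6% and 30.1%. Mcts2 and Zrsr1, retrogenes within host genes, ended at 52.6% and 56.7% and at 59.0% and 59.8%. The growth inhibitor Cdkn1c and the scavenging receptor Igf2r, both expressed from the maternal copy, read 54.5% and 58.6% and 59.2% and 66.7%. Nap1l5 (97.3% and 98.9%) and Nnat (88.6% and 91.4%) instead ended near the top from at most 2.33% in ESCs. Plagl1 differed between the EpiSC libraries, at 83.1% and 56.2%. Igf2, Rasgrf1, Zdbf2 and Inpp5f did not pass the test, and the first was called at its most upstream start (40.9 points). Mest, Nap1l5, Peg10 and Sgce lie on chromosome 6 and Dlk1 on chromosome 12, where read depth differed between the groups, and the part of depth in their levels was not tested.

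Most genes of the methylation machinery were low at their starts. Of 16 tested, 5 were called higher (31.2%), near the 36.2% of all promoters. Dnmt3l, the catalytically inactive partner of the de novo enzymes, was the only tested member to reach a high level, from 35.5% and 26.9% to 91.4% and 94.4%. Dnmt3a read 0.738% and 1.89% against 6.41% and 2.78%, Dnmt3b 3.90% and 2.07% against 25.2% and 15.8%, and Dnmt1 1.37% and 2.11% against 18.6% and 21.2%, none of them called. Dnmt1 was called at its most upstream start (42.4 points), and Dnmt3b passed the limit on EpiSC replicate 1 alone, without EpiSC replicate 2, at 22.2 points. Mbd1, Uhrf2 and Hells were called by 24.4, 23.7 and 21.3 points, and Mbd1 and Hells missed the limit without EpiSC replicate 2 (16.5 and 17.4 points). Uhrf2 and Hells missed it with 500 bp on each side of the start (10.9 and 6.14 points). The dioxygenase genes Tet2 and Tet3 had EpiSC means of 1.78% and 1.58%, and Tet3 was called at its most upstream start (79.3 points). Tet1 fell short of the minimum, with 32 observations in its sparsest library, and read 0% in both ESC libraries and 91.5% and 96.9% in EpiSCs. Zfp57, which guards imprints, was not called over its window (8.50 points) but was with 500 bp on each side of the start (65.0 points). Its outer part was at 2.55% and its inner part at 89.4% in EpiSCs, the latter from as few as 12 observations.

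Lineage genes outside the epiblast were divided as well. Of 14 tested trophoblast genes 6 were higher (42.9%, near the 36.2% of all promoters), with Elf5, a trophoblast transcription factor, at 26.6% and 11.1% in ESCs and 94.0% and 93.8% in EpiSCs and Plet1 at 2.08% and 2.74% against 83.9% and 96.4%. The calls of Ets2, Tead4 and Krt18 were lost with 500 bp on each side of the start (3.66, 1.04 and 14.5 points), and that of Ets2 also without EpiSC replicate 2 (18.4 points). Gata3, Tfap2a and Tfap2c stayed at EpiSC means of 0.806% to 1.19%. Of 12 tested primitive endoderm genes 2 were higher (16.7%, against 36.2% of all promoters), Amn (5.17% and 13.2% against 96.8% and 92.1%) and Lama1 (1.18% and 1.87% against 29.1% and 30.5%). Lama1 was not called with 500 bp on each side of the start (2.69 points, adjusted p = 0.0693). The 4 members short of the minimum, Afp, Cubn, Hnf4a and Sparc, had a median of 17.4% in ESCs and 92.5% in EpiSCs. Gata4 read 2.45% and 1.34% in ESCs and 0.51% and 0% in EpiSCs, but at its most upstream start it was 46.0 points higher in EpiSCs. Gata6, Pdgfra, Col4a1 and Col4a2 had EpiSC means below 2%.

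Tissue-specific families with few CpG sites were mostly called. All 37 tested keratin promoters were higher, against 36.2% of all promoters and 89.9% of low-CpG ones, the class of 27 of them, with list medians of 14.04% and 17.6% in ESCs and 90.2% and 88.2% in EpiSCs. All 13 tested olfactory receptor and all 7 tested beta-defensin promoters were higher, against the same 36.2% of all promoters and 89.9% of low-CpG ones. Their median differences were 65.1 and 71.7 points. But these were the few of 1086 and 42 that reached the minimum, and 10 and 6 of them were of the low-CpG class. Olfr156 was the lowest of its family in EpiSCs, at 38.8% and 41.1%. Of 29 tested cytochrome P450 genes 18 were higher (62.1%, against 36.2% of all promoters). The 29 held 13 low-CpG, 10 intermediate and 6 high-CpG promoters, classes of which 89.9%, 39.4% and 8.03% were called higher. Cyp2r1, a vitamin D 25-hydroxylase with a high-CpG start, went from 2.91% and 6.76% to 96.1% and 96.9%.

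Hox and other developmental homeobox promoters mostly stayed low. Of 33 Hox promoters 6 were higher (18.2%, against 36.2% of all promoters), led by Hoxb1 (7.79% and 4.82% against 64.1% and 55.3%) and Hoxb8 (12.5% and 7.81% against 53.5% and 58.1%), and the highest EpiSC mean among them was 59.7%. Hoxd11 had means below 2% in both groups. Of 45 developmental homeobox promoters 3 were higher (6.67%, against the same 36.2%), including Nkx6-3 at 82.3% and 84.8% in EpiSCs, and 1 was lower. Of 300 Zfp genes 99 were higher (33.0%), about the share of all promoters. Of 10 tested protocadherin promoters 7 were higher (70%, against 36.2% of all promoters), but 47 of the 57 in the family fell short of the minimum. Pcdhga2 was at 91.5% and 93.2% in EpiSCs, while the C-type members Pcdhac2 and Pcdhgc4 read at most 18.3%.

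The promoters with the largest difference went from nearly 0% to nearly 100%. They were 2210016F16Rik (chr13:58385125-58386225), H2-M5, Ndufa13, C130032M10Rik, Zfp775, 4933428G20Rik, Nsd1, Trim25, Gm49366 and Eef1akmt1, with differences of 96.7 to 98.1 points. Ndufa13 (chr8:69902458-69903558, 111 CpG sites) rested on at least 598 observations per library and read 0% and 0.133% in ESCs and 98.2% and 98.0% in EpiSCs (adjusted p = 1.12e-08). Its product belongs to respiratory complex I, but the window also holds exons of Tssk6, a testis kinase, and of Yjefn3, so the level cannot be given to one gene. The windows of C130032M10Rik, 4933428G20Rik, Gm49366 and Eef1akmt1 likewise overlap exons of Trim71, Arhgap23, Acot4 and 1700039M10Rik, in that order. Nsd1, a histone H3K36 methyltransferase, read 0% in both ESC libraries and 98.9% and 95.4% in EpiSCs at the start used, which is poor in CpG. Trim25, an E3 ligase of antiviral signalling, read 0% in ESCs and 95.4% and 98.6% in EpiSCs, and 0% in ASCs.

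Among high-CpG promoters the leading 10 added Car10, Rbmxl2, Zfp541, Trhde and Boll. Rbmxl2, Zfp541 and Boll act in male germ cells, and Boll read 1.08% and 0.256% in ESCs against 95.7% and 97.1% in EpiSCs. Trhde, a peptidase of thyrotropin-releasing hormone, and Car10, a carbonic anhydrase-related protein, are neural genes and reached 95.8% and 96.4% and 97.2% and 96.2%. The Trhde window also overlaps an exon of the antisense gene Gm15723. The highest ESC means were at Slc22a13 (46.1% and 53.2%), Gm49369 (55.3% and 37.8%), Col6a5 (44.2% and 48.2%), Tmem238l and Trim61, and all 5 were still called higher, by 27.9 to 52.1 points. The Gm49369 window overlaps an exon of Ctsd and the Trim61 window an exon of Trim60.

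A few CpG-dense promoters differed between the EpiSC libraries. Rap1a, a small GTPase, read 71.4% in replicate 1 and 25.4% in replicate 2, and Rims1, a synaptic scaffold, 85.7% and 48.8%. Mmp24 and Atp2b2 went the other way, at 22.0% and 58.7% and at 43.6% and 75.5%. In each of these 4, both EpiSC libraries were above both ESC libraries. Mmp24 lost the call without EpiSC replicate 2 (10.1 points), and Rap1a, Mmp24 and Atp2b2 lost it with 500 bp on each side of the start (3.24, 0.686 and 12.7 points). Leaving out either ESC library took Mmp24 to adjusted p = 0.108 and 0.0684 and Rap1a to adjusted p = 0.0513 and 0.0779, although the differences stayed about as large, at 27.0 and 30.1 points for Mmp24 (28.5 with all 4 libraries) and 48.4 and 47.0 points for Rap1a (47.7). Over the 5968 high-CpG promoters, 264 (4.42%) differed by more than 10 points between the EpiSC libraries and 30 (0.503%) between the ESC libraries. The ESC medians of this class were 0.699% and 0.658%, which leaves little room for such a difference, so the 2 shares do not compare reproducibility.

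Lower methylation in EpiSCs was rare among the regions tested. The only called promoter was Lhx9 (chr1:138842357-138843457, minus strand), a LIM homeobox factor of gonad and brain, at 24.1% and 48.8% in ESCs and 2% and 2.33% in EpiSCs (fell by 34.3 points, adjusted p = 0.0015). The tile that holds this promoter (chr1:138842001-138844000) and the adjoining tile (chr1:138840001-138842000) were called too. The tile over the promoter read 22.4% and 21.4% in ESCs and 0.855% and 0.585% in EpiSCs. The adjoining one read 21.3% and 24.8% against 2.87% and 2.06%, and missed the limit without ESC replicate 2 (fell by 18.8 points). Another called tile was in an intron of Vmn2r22 (chr6:123646001-123648000), at 31.1% and 28.2% against 4% and 7.02%. With chromosomes 6 and 12 left out, 2 tiles were lower. At the most upstream annotated start Lhx9 fell by 1.87 points and was not called (adjusted p = 0.171). Without the 20-point limit, 259 tiles (0.057%) were lower at an adjusted p under 0.05, against 260 at an unadjusted p.

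Without the 20-point limit, 34 promoters (0.233%), Lhx9 included, were lower at an adjusted p under 0.05, against 49 at an unadjusted p. Beside Lhx9 the largest were Miip (18.6% and 23.3% in ESCs, 3.89% and 3.47% in EpiSCs), Ogfod2 (9.6% and 16.0% against 0.959% and 0.444%) and the retroviral restriction gene Fv1 (11.7% and 13.2% against 1.25% and 0%). The windows of Miip and Fv1 overlap in part. Selenoi and Lin28b were 10.8 and 10.3 points lower. In ASCs these 5 promoters were also above their EpiSC means, at 10.6% to 46.4%.

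ASCs are given for position only. Setting the ESC mean to 0 and the EpiSC mean to 1, the median position of the 2 ASC libraries was 0.399 ± 0.00675 (SD, n = 2) over the 5047 of the 5282 called promoters with at least 40 observations in both ASC libraries too, 0.568 in the low-CpG class and 0.112 in the high-CpG class. The 7 naive promoters stood at 0.0464 and 0.0798, and the 36 germline promoters at 0.382 and 0.359. These positions were not tested.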

How the data were processed

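Bisulfite came before adaptor tagging in these libraries. Per the labels and the study's methods reads were trimmed with Trim Galore (4 leading bases, from the random primer, and 1 final base removed), aligned with Bismark 0.16.3, deduplicated and summed over both strands of each CpG with MethPipe. The files as deposited by the authors give a methylation fraction and a read count for every CpG. The notes name builds GRCm38, mm10 and mm9, and every listed site fell on a CpG of GRCm38. That reference is C57BL/6J, so strain variants at CpG sites can lower a level, and whether they do so alike in all libraries was not tested.

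Methylated reads were the fraction times the read count. Counts were summed over 2 kb tiles and over promoters of 1 transcript per protein-coding gene of GENCODE M21. Promoters with an observed to expected CpG ratio above 0.75 and a GC content above 55% in some 500 bp window were high CpG, and those never above 0.48 low CpG. Tests were quasi-binomial with dispersion moderated by limma 3.58.1 in R 4.3.3, dispersion not under 1, with Benjamini-Hochberg adjustment over all tiles or all promoters, and a call needed adjusted p under 0.05 and 20 points. Group levels are means of 2 libraries. The model was tested on simulated data at adjusted p under 0.05 alone, without the limit of 20 points. It recovered 59 of 98 changes of 10 points and 96 of 102 of 30 points, and called 12 unchanged promoters. Only 200 of 14593 promoters were changed there, with a spread set in advance, so these rates do not carry over to the data. Of the tested promoter windows 13.5% overlapped another.

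Regions, gene lists and tests were chosen with earlier results of these data known. Named were listed genes, the largest differences, the highest ESC levels, the least alike EpiSC replicates, the extremes of each gene family and regions lower in EpiSCs. Sequences came from GRCm38. Python 3.11.15 with NumPy 2.4.6 and pandas 2.3.3 was used. Alternatives covered the minimum of observations, the size limit, the window, the start, the test, thinning, each library left out, the replicate number as a block and, chosen after seeing the data, chromosomes 6 and 12 left out. The lambda spike-in, chromosome Y and non-CpG sites were not analysed here, and chromosome X entered no test, only a description of its read depth and methylation. A few regions that the naming rule selects are not reported here.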

Additional observations from a re-analysis of the deposited data

Results flagged for a closer look

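Chromosome X, which the tiles and promoters leave out, differed in read depth between the groups. Relative to the median autosome, reads per CpG were 0.371 and 0.385 in ESC replicates 1 and 2 and 0.625 and 0.609 in EpiSC replicates 1 and 2, without overlap, and 0.503 and 0.499 in the ASC libraries. In 17 bins of 10 Mb the ratio of ESCs to EpiSCs ran from 0.575 to 0.745. Chromosome X methylation was 17.9% and 18.1% in ESCs and 81.8% and 81.6% in EpiSCs. The study described the cells as female, and the number of X chromosomes was not tested.

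On the mitochondrial genome, which no comparison used, 41.5% and 46.0% of CpG observations were called methylated in ESC replicates 1 and 2 and 43.3% and 41.1% in EpiSC replicates 1 and 2, from 14436 to 27214 observations per library. The ASC libraries read 49.3% and 45.5%. The groups overlapped there, and the conversion of mitochondrial DNA was not tested.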

How the results depend on the processing

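No named promoter or tile that was called changed direction under any alternative run. Among 219 named promoters, 2902 of the values under alternatives stayed on their side of the threshold, 31 lost and 13 gained the call and 1 reversed, namely the promoter of Gata4, which was 46.0 points higher in EpiSCs at the most upstream start. Of the named tiles' values 150 stayed and 3 lost the call, and of the gene list counts 270 stayed within 1.5 times and 50 moved beyond it. The causes were not tested, except that stricter minimums and size limits leave fewer regions to call.

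A changed minimum, window or start also changes which promoters are tested, so the counts below are not shares of one total. The promoters called higher in EpiSC numbered 5282, but 1926 with a minimum of 100 observations and 3334 with at least 40 points. The promoters called lower in EpiSC numbered 1, but 0 with a minimum of 100, at the most upstream start and with at least 40 points, 2 with 500 bp on each side of the start and 6 with at least 10 points. The promoters called higher, high CpG, numbered 479, but 209 with 500 bp on each side, 726 at the most upstream start, 1406 with at least 10 points and 137 with at least 40. The promoters called higher, intermediate CpG, numbered 2300, but 1191 with a minimum of 100, 1164 with 500 bp on each side, 3657 with at least 10 points and 1037 with at least 40. The promoters called higher, low CpG, numbered 2499, but 4123 with a minimum of 20 and 309 with a minimum of 100. The promoters of the symbol lists called higher numbered 79, but 44 with a minimum of 100. Leaving out 1 library gave 5308 to 5696 promoters called higher in EpiSC, but of 14718 to 14968 tested, since only 3 libraries then had to reach the minimum. All such counts set 1 library against 2 and take the spread from the other group, so they are no replicated check.

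The tiles called higher in EpiSC numbered 438614, but 705266 with a minimum of 20 and 113960 with a minimum of 100, and 445203 to 489909 with 1 library left out. Here too the minimum and the libraries used set which tiles are tested. The tiles called lower in EpiSC numbered 4, but 2 with a minimum of 100, 33 with at least 10 points, 0 with at least 40 points, 2 with chromosomes 6 and 12 left out and 3 to 6 with 1 library left out. The median methylation of tiles, ESC, was 19.5% and became 18.9%, 17.7% and 19.03% with minimums of 20 and 100 and as a mean that gives every site of 5 reads or more the same weight. The median methylation of tiles, EpiSC, was 92.1% and became 91.7%, 92.0% and 92.5%, with 92.04% to 92.08% with 1 library left out.

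The next differences are between group medians, not medians of the differences of single tiles. In the same order of settings, EpiSC minus ESC, tiles with 1 to 10 CpG sites, was 72.8 points and became 74.4, 62.1 and 73.7, and 72.7 to 73.4 with 1 library left out. EpiSC minus ESC, tiles with 11 to 20 CpG sites, was 72.3 points and became 72.6, 71.8 and 73.3. EpiSC minus ESC, tiles with 21 to 40 CpG sites, was 72.1 points and became 72.8 with a minimum of 100 and 73.0 unweighted. EpiSC minus ESC, tiles with 41 to 80 CpG sites, was 77.9 points and became 77.3 and 78.7 with minimums of 20 and 100. EpiSC minus ESC, tiles with over 80 CpG sites, was 5.74 points and became 4.74 unweighted. The median methylation of promoters, ESC, was 1.504% and became 1.89%, 0.92% and 1.22%, and 1.51% to 1.56% with 1 library left out. The median methylation of promoters, EpiSC, was 13.4% and became 16.97%, 7.58% and 11.2%, and 13.2% to 14.3% with 1 library left out.

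With the replicate number as a block (replicate block), promoters called higher in EpiSC numbered 5277 and tiles called higher in EpiSC 438613, and the block changed no other call among the named regions. Replicates with the same number did not deviate together region by region (correlation of deviations from the group means -0.00072 over tiles and 0.0033 over promoters). Such a correlation cannot show a shift common to all regions, so whether these replicates shared a preparation was not tested. Counting error limits single regions most at the minimum of 40 observations.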
